A study of Mus musculus with 20 samples.

Results

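Livers of 3 male C57BL/6J mice kept for 401 days under gamma rays at a high dose-rate of 20.0 mGy per day were compared with livers of 3 mice kept at a medium dose-rate of 1.00 mGy per day, a 20-fold difference. The comparison takes every array whose title marks it as high or medium in the second of the study's experiments, which makes 6 of the 20 arrays. All mice were 8 weeks old when irradiation with 137Cs began, and the cumulative doses were 8015 mGy and 401 mGy. Each array holds liver RNA of 1 mouse, taken as soon as irradiation ended, so the replicates are mice. For reference, the same experiment had 3 mice at a low dose-rate of 0.05 mGy per day (20 mGy in total) and 1 array of RNA pooled from 6 unirradiated mice. The first experiment, which lasted 485 days, had 3 high mice at 16.6 mGy per day and 3 medium mice at 0.858 mGy per day, and their difference is given beside that of 401 days. Irradiated mice were not pooled, neither group held an unirradiated mouse, and the sources used here do not state at what hour they died or when they last fed.

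Ionizing radiation breaks DNA and forms reactive oxygen species, and a cell answers with repair, with p53-driven arrest or death and with antioxidant enzymes. The liver divides rarely, and its RNA is mostly that of hepatocytes, which secrete plasma proteins, handle lipids and detoxify, and follow feeding, hormones and the time of day. At a low dose-rate the damage is spread over time. The question of this comparison is whether 20 times more radiation per day leaves a different set of active genes. Both groups were irradiated for the same number of days, so dose-rate and cumulative dose rose together and cannot be told apart here.

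No gene passed the threshold. Of 11217 genes tested on log2 signal by limma with Benjamini-Hochberg adjustment, 0 differed between high and medium mice at an adjusted p of 0.05 (0%), and the smallest adjusted p was 0.812. An unadjusted p under 0.05 was held by 539 genes (4.81%), 247 with the higher signal at the high dose-rate (2.2%) and 292 with the lower (2.6%), where chance gives 561 on average. The 3 high and 3 medium arrays did not overlap for 1318 genes (11.8%), of which 580 were higher (5.17%) and 738 lower (6.58%) at the high dose-rate. For 213 of these the means also differed by 1.5-fold or more, 94 higher (0.838%) and 119 lower (1.06%). Since nothing passed, the genes below are described by their values, and none is shown to differ. The median standard error was 0.20 on the log2 scale, so the unadjusted 95% interval of a typical gene reached 0.41 to either side, or 1.33-fold. Smaller differences were not resolved. Larger ones could also fail after adjustment over 11217 genes, as did Frat1 at -2.26 (limma, adjusted p = 0.812). An exact permutation test of 3 against 3 arrays cannot give a p below 0.1.

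The 6 arrays were of like quality. The trimmed mean signal was 500 on each, the mark of a global scaling before deposit. The correlation across genes was 0.967 to 0.977 among high mice, 0.970 to 0.972 among medium mice and 0.965 to 0.975 between them, so the groups were not closer within than between. Per gene, the median SD was 0.18 in both groups on the log2 scale. Gapdh probes near the 3' end over those near the 5' end, a ratio that rises as RNA degrades, gave 0.871 to 0.978 in high mice and 0.877 to 0.993 in medium mice. High and medium mice of the 485-day experiment gave 0.701 to 0.753. The same ratio for actin was 2.25 to 2.6 at 401 days and 1.99 to 2.13 at 485 days, so the experiments did not overlap in either ratio. Albumin (Alb) gave signals of 60506 to 85184 and transthyretin (Ttr) 62723 to 81526 on the 6 arrays, as liver should.

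**Figure D1:**
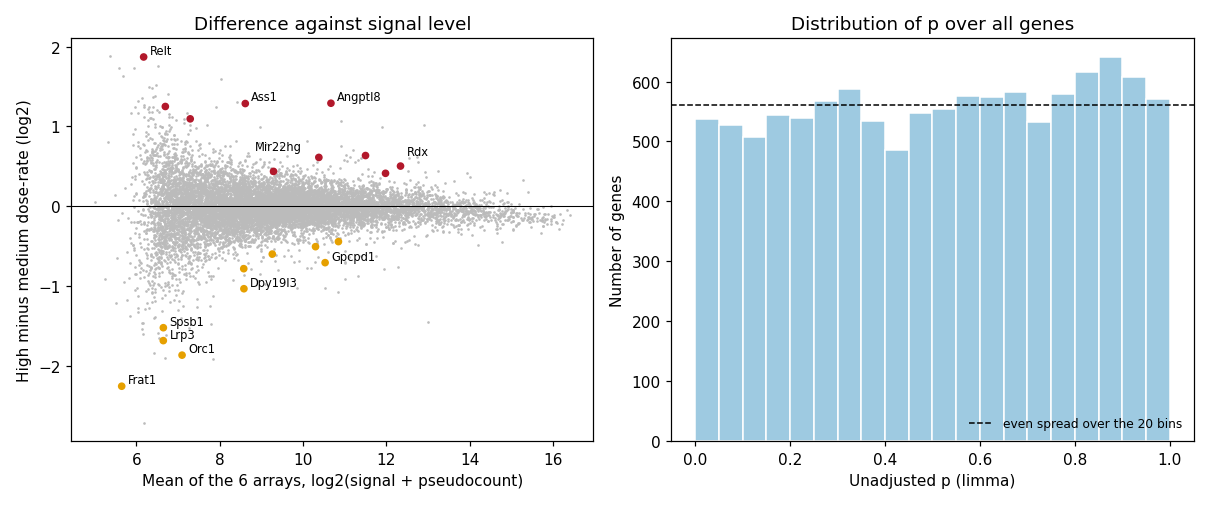
Left, the high minus medium difference of each of 11217 genes (log2) against its mean log2 signal over the 6 arrays, with the 10 genes of smallest p in each direction in red (higher in high mice) and orange (lower). Right, the number of genes in each bin of the unadjusted limma p, which shows no excess at small p beside the dashed line of an even spread.

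The gene with the smallest p was Mir22hg, the RNA from which microRNA 22 is cut. Its signals were 1704, 1622 and 1594 in high mice and 1165, 865 and 1215 in medium mice, so that the groups did not overlap. Low mice (1289 to 1363) and the pool (1205) lay between the group means. The difference was 0.61 ± 0.13 on the log2 scale (SE, limma, adjusted p = 0.812, 95% interval 0.35 to 0.88). The array reads the host RNA and not the mature microRNAs, which are shown because they are what this RNA is known to give; capitals mark the seed, bases 2 to 8, by which a microRNA recognizes its targets. Both lie on the plus strand of chromosome 11, at chr11:75463734-75463755 and chr11:75463772-75463793 (RefSeq, GRCm38.p6).
mmu-miR-22-5p: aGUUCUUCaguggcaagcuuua
mmu-miR-22-3p: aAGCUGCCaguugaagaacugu

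Ube3a, a ubiquitin ligase, had signals of 3275, 3572 and 4002 in high mice and 2067, 2409 and 2497 in medium mice. Low mice spread from 2904 to 4507, across and above the high mice. The difference was 0.64 ± 0.14, and 1 of the 5 further probe sets for this gene had the opposite sign. Radixin (Rdx), which ties actin to the membrane and holds transporters in the bile canaliculus, read 5429, 6374 and 6786 in high against 4491, 4245 and 4317 in medium mice (0.50 ± 0.11). For Rdx the pool, at 5726, and low mice, at 4589 to 6505, lay above every medium mouse. Pde3b, a phosphodiesterase through which insulin lowers cyclic AMP, read 4089, 4923 and 5026 against 3830, 3685 and 3033 (0.41 ± 0.11), with the pool (4349) and low mice (4254 to 4711) again above the medium mice. Pgam5, a phosphatase of mitochondria, showed the same order, with 677, 728 and 764 against 548, 521 and 527 (0.44 ± 0.12) and 722 in the pool.

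Angptl8, a hormone of liver and fat that feeding induces and that restrains lipoprotein lipase, read 2673, 2582 and 2404 in high mice and 905, 1135 and 1088 in medium mice. The high mice lay close together and far from the medium mice, but low mice ranged from 1944 to 5392 and the pool read 1224, so the signal had no order by dose-rate. The difference was 1.29 ± 0.32 (adjusted p = 0.812 by limma). With only the 6 arrays compared in the fit, Angptl8 was the 1 gene that passed (adjusted p = 0.00631). The other fits gave it adjusted limma p values of 0.205 or more. The 6-array fit leaves out the spread of this gene among low mice and among high mice of the 485-day experiment (2168, 3352 and 1183). The part of that spread in the result was not tested.

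Ass1, the urea cycle enzyme that joins citrulline and aspartate, read 660, 668 and 502 in high mice, above 211, 382 and 179 in medium mice, 286 to 362 in low mice and 307 in the pool (1.29 ± 0.32). Every high mouse was thus above all other arrays of the experiment. No other probe set was assigned to Ass1 alone, and its signals were far below those of Oat, another amino acid enzyme (11882 to 26766). Whether this probe set reads the main Ass1 transcript was not tested. Another 3 genes, all of low signal, completed the 10. Relt, a receptor of the tumour necrosis factor family, read 180, 77.2 and 160 against 31.4, 34.2 and 26.7 (1.87 ± 0.45). Zbtb7c, a zinc finger factor, read 175, 146 and 140 against 49.2, 69.5 and 63.0 (1.25 ± 0.33, 1 of 2 other probe sets opposite). The predicted gene Gm6958 read 142, 306 and 250 against 88.1, 117 and 97.1 (1.10 ± 0.29). Relt and Zbtb7c were under the array median in all 3 medium mice, a range in which no detection call tells signal from background, and the size of their differences is uncertain.

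Among the 10 genes of smallest p with the lower signal in high mice, 5 had every high mouse below all other arrays of the experiment. These were Ypel3, Nceh1, Dpy19l3, Cys1 and Spsb1. Of the 10 higher genes, 3 had every high mouse above all other arrays, namely Mir22hg, Ass1 and Zbtb7c. Genes picked for a small p tend to such positions, and the share over all genes was not counted. Ypel3, of a family of small zinc-binding proteins, read 1683, 1514 and 1538 in high mice and 2138, 2336 and 1983 in medium mice, with 2100 to 2186 in low mice and 2125 in the pool (-0.44 ± 0.12). Gpcpd1, which splits glycerophosphocholine, read 1446, 1079 and 972 against 1781, 1885 and 1983 (-0.71 ± 0.16), but 1 low mouse read 1328, within the high range, and 1 of 3 other probe sets had the opposite sign. Nceh1, a cholesterol ester hydrolase, read 513, 427 and 543 against 714, 725 and 812 (-0.60 ± 0.16). Its pool signal was 1081 and low mice spread from 548 to 817. Dpy19l3, which attaches mannose to secreted proteins, read 204, 354 and 244 against 712, 529 and 420 (-1.04 ± 0.27), with 361 to 709 in low mice.

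Cyth1, an exchange factor for Arf GTPases, read 1019, 1127 and 1006 in high mice and 1391, 1566 and 1532 in medium mice (-0.51 ± 0.14), but low mice, at 910 to 1103, matched the high mice. Cys1, which encodes the ciliary protein cystin, read 304, 282 and 267 against 609, 424 and 466 (-0.78 ± 0.21), with 324 to 432 in low mice. For Cyth1 and for Cys1 the 1 other probe set went the opposite way. Spsb1, which directs proteins to ubiquitination, read 65.3, 42.1 and 50.8 against 154, 145 and 193 (-1.52 ± 0.35, 1 of 3 other probe sets opposite), with 98.4 to 161 in low mice. Orc1, a subunit of the complex that marks replication origins, read 72.8, 137 and 24.7 against 223, 229 and 321 (-1.87 ± 0.45), while the pool read 93.8, within the range of high mice. Frat1, which keeps the Wnt pathway's kinase GSK3 from its substrates, read 26.7, 11.97 and 11.5 against 65.4, 132 and 124 (-2.26 ± 0.58), and Lrp3, of the LDL receptor family, read 19.7, 92.9 and 57.8 against 152, 172 and 196 (-1.69 ± 0.46). High mice read below the array median for Spsb1, Frat1 and, in part, Orc1 and Lrp3, so these sizes are uncertain as well.

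**Figure D2:**
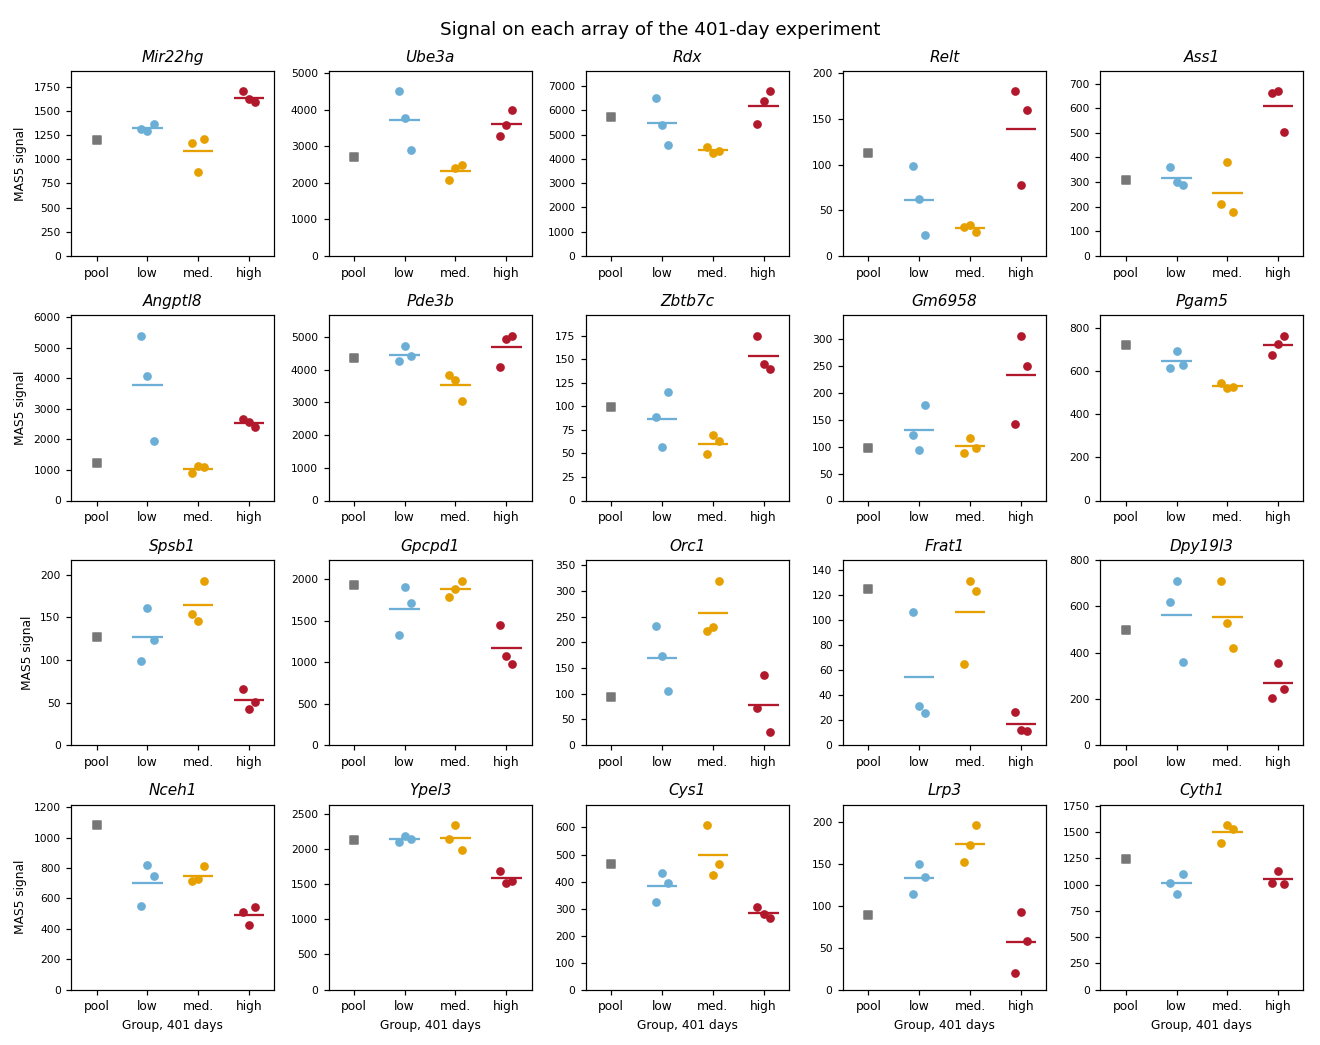
MAS5 signal (linear axis from 0) of the 20 genes of smallest p on every array of the 401-day experiment, 10 higher and 10 lower in high mice. Points are arrays, the square is the pool of 6 unirradiated mice and bars are means of 3 mice; high and medium mice do not overlap in any panel, whereas low mice and the pool often lie on both sides.

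The means of high and medium mice in these 2 sets were also ranked with those of the unirradiated pool and the low mice. In 9 of the 10 genes with higher signal in high mice the medium group had the lowest mean of the 4 groups, and in 8 the high group had the highest. In the 10 with lower signal, high mice had the lowest mean in 9 and medium mice the highest in 6. A set picked for its high minus medium difference tends to such positions, so these counts are a description.

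The mice of the 485-day experiment, none of which entered the difference above, gave a check on these 20 genes. Of the 10 higher genes, 5 were higher and 5 lower in high than in medium mice at 485 days, and of the 10 lower genes, 6 were lower. The difference at 485 days was within 0.25 of 0 on the log2 scale in 14 of the 20. For Mir22hg it was 0.01, for Ube3a -0.11, for Rdx -0.06 and for Angptl8 -0.07. Ass1 (0.33), Gm6958 (0.75), Dpy19l3 (-0.59) and Spsb1 (-0.50) kept their sign at a smaller size, and Frat1 (1.18) and Lrp3 (0.40) had the opposite one. Over all genes the differences of the experiments, which share no array, had a correlation of 0.019 across genes.

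Ranked by size among the 213 genes with a 1.5-fold difference and no overlap (1.9% of genes tested), most of the largest were of low signal too. Higher in high mice, beside Relt, were the zinc finger gene Adnp2 (1.76 ± 0.51), Rph3a, known from vesicle release in neurons (1.63 ± 0.71), the peptide transporter Slc15a2 (1.60 ± 0.62) and the metalloproteinase Mmp23 (1.52 ± 0.58). Lower, beside Frat1, Orc1 and Lrp3, were Praf2, a membrane protein (-1.90 ± 0.69), and the homeobox gene Hoxa5 (-1.84 ± 0.58). Slc15a2 read 373, 579 and 417 in high mice and 67.3, 253 and 170 in medium mice, but 58.3 to 451 in low mice alone. Adnp2 read 153, 167 and 166 in high mice against 91.4, 81.4 and 6.98 in medium mice, and its difference was 0.86 without medium mouse 3. For Slc15a2 1 of 2 other probe sets, and for Rph3a the 1 other probe set, had the opposite sign. The 1 other probe set of Praf2 went the opposite way and, where the probe set with the highest mean was taken, gave 0.14. By the same choice Hoxa5 was at -0.21 and Gm6958 at 0.54. At 485 days the differences were -2.07 for Slc15a2, -1.14 for Mmp23, -0.42 for Adnp2 and -0.0045 for Rph3a. Praf2 was at -0.51 and Hoxa5 at 0.20 there.

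Gene lists were described by their counts and medians beside those of all genes, of which 47.1% had the higher signal in high mice, with a median difference of -0.01. None of the 45 lists held a member past the threshold. Lists of the DNA damage answer had medians close to that of all genes. Of 24 p53 targets and checkpoint genes measured, 15 were higher and 9 lower in high mice (median 0.03). An unadjusted limma p under 0.05 was held by 3 of them, and by 4.81% of all genes. Of these 3, Bbc3 and Plk2 were higher and Fas, named here after its value was seen, was lower (-0.69 ± 0.31). Bbc3, which encodes the death-promoting protein PUMA, read 566, 349 and 286 in high mice and 231, 264 and 186 in medium mice (0.75 ± 0.25, adjusted p = 0.887). The difference of Bbc3 was 0.48 without high mouse 1. The groups did not overlap, and low mice (182 to 277) and the pool (213) lay with the medium mice. Plk2, a stress-induced kinase, read 613, 630 and 697 against 429, 463 and 424 (0.55 ± 0.19, adjusted p = 0.98), with low mice at 428 to 598.

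The best known p53 targets, named here after their values were seen, did not separate the groups at 401 days. Cdkn1a, whose product p21 stops the cell cycle, read 591, 341 and 783 in high mice and 411, 319 and 564 in medium mice (0.36 ± 0.37, 95% interval -0.41 to 1.13). Low mice, at 149 to 236, read less than either group, and the pool read 440. Ccng1 (0.04 ± 0.15, interval -0.27 to 0.34) and Mdm2, the ubiquitin ligase that degrades p53 (-0.08 ± 0.28, interval -0.67 to 0.50), had overlapping groups. The other probe sets, 1 of Cdkn1a and 2 of Mdm2, had the opposite sign. At 485 days the differences were 0.74 ± 0.37 for Cdkn1a, 0.36 ± 0.15 for Ccng1 and 0.71 ± 0.28 for Mdm2, and none passed. The median of the p53 list was 0.16 there, with 15 of 24 genes higher, where 50.1% of all genes were. Its medians by mouse did not overlap at 485 days. Among 35 DNA repair genes 19 were higher and 16 lower (median 0.03), and the member with the smallest p was Xrcc1, the scaffold of single-strand break repair, at 302, 392 and 353 against 442, 559 and 433 (-0.44 ± 0.20). Its high mice also lay under low mice (458 to 541) and the pool (480). Of 25 cell cycle and replication genes that passed the filter, from 41 on the array, 18 were lower (median -0.07), with the cyclin kinase inhibitor Cdkn1b at 0.46 ± 0.20 and the ribonucleotide reductase subunit Rrm2 at -0.48 ± 0.25 (-0.18 by its probe set of highest mean). Antioxidant genes gave 9 higher and 16 lower of 25 (median -0.02), among them catalase (Cat) at 0.20 ± 0.08 and Gstp1 at -0.33 ± 0.14.

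Several genes of insulin action and fuel storage follow. As in every list, they were named for having the smallest p, so that is no result about them. The median of the list given last lay close to that of all genes. Igfbp1, a binding protein of insulin-like growth factor that insulin represses, read 5944, 5062 and 5091 in high mice and 4207, 2691 and 1718 in medium mice (0.99 ± 0.35). Low mice (1630 to 3226) and the pool (1906) were below every high mouse. Ppp1r3c, which brings a phosphatase to glycogen, read 6767, 7828 and 7516 against 6094, 5308 and 3474 (0.61 ± 0.19), again with low mice (4375 to 5896) and the pool (3410) below the high mice. Irs1, an adaptor of the insulin receptor, read 1466, 1480 and 1757 against 2143, 2214 and 1766 (-0.38 ± 0.12). The list of gluconeogenesis, glycogen and insulin signalling held 8 higher and 15 lower of 23 (median -0.02).

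Fatty acid synthesis and NADPH supply gave 14 higher and 9 lower of 23 (median 0.05). Aacs, which turns acetoacetate into a lipid precursor, read 2658, 2352 and 2520 in high mice and 1257, 1898 and 1368 in medium mice (0.75 ± 0.22, 1 of 2 other probe sets opposite). Scd2, a fatty acid desaturase, read 820, 509 and 843 against 325, 451 and 292 (1.00 ± 0.31), above low mice (219 to 446) and the pool (301). The list for fatty acid burning and PPAR alpha held 34 genes, 15 higher and 19 lower (median -0.02). Angptl4, a fasting-induced inhibitor of lipoprotein lipase, read 1211, 2398 and 2229 against 2709, 3243 and 4537 (-0.87 ± 0.28, adjusted p = 0.832). Low mice read 3305 to 5628 and the pool 6124, both above every high mouse. With no filter on low signals another probe set of Angptl4 was taken, which gave -0.17, and without high mouse 1 the difference was -0.56. Creb3l3, a liver factor for fasting and lipid genes, read 7749, 7701 and 8058 against 9329, 9528 and 10197 (-0.30 ± 0.09), below low mice (8588 to 9719) and the pool (10840). At 485 days the differences of Angptl4 (0.07) and Creb3l3 (0.06) were near 0.

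Other lists of lipid and amino acid metabolism had medians of -0.12 to 0.00, and 52.9% of all genes were lower. Lipid droplet and PPAR gamma targets gave 7 higher and 8 lower of 15 (median -0.12), with G0s2, an inhibitor of triglyceride breakdown, at 0.61 ± 0.27 and the droplet coat gene Plin2 at -0.28 ± 0.16. Cholesterol synthesis gave 10 and 10 of 20 (median 0.00, 0.29 at 485 days), with Mvd at 0.41 ± 0.25 and the sterol sensor Insig1 at 0.23 ± 0.16. Bile acid genes gave 12 and 15 of 27 (median -0.01), with Scp2 at -0.22 ± 0.09, for which all 3 other probe sets had the opposite sign. Of 22 urea cycle and amino acid genes 17 were lower (median -0.07), among them ornithine aminotransferase (Oat) at -0.49 ± 0.20. Methionine and one-carbon genes gave 7 and 10 of 17 (median -0.05), with Bhmt2 at 0.31 ± 0.13 (0.06 by its probe set of highest mean) and Pemt at -0.21 ± 0.09.

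Abundant genes of hepatocytes were slightly lower in high mice. All 12 hepatocyte markers measured were on that side (median -0.16), against 52.9% of all genes, and none passed. Their median by mouse was -0.05, -0.17 and -0.23 at the high and 0.02, 0.05 and -0.06 at the medium dose-rate, so that 1 high mouse overlapped the medium mice. Alb read 73332, 64314 and 60506 in high mice and 80636, 85184 and 76256 in medium mice (-0.29 ± 0.08, adjusted p = 0.812), with low mice (71569 to 74941) and the pool (73435) around the highest of the high mice. Ttr read 68954, 63154 and 62723 against 72856, 81526 and 71250 (-0.21 ± 0.08). Acute phase and plasma protein genes were lower in 21 of 24 (median -0.17), with hemopexin (Hpx) at -0.25 ± 0.08 and haptoglobin (Hp) at -0.26 ± 0.10, and their median separated all high mice (-0.20 to -0.14) from all medium mice (-0.03 to 0.07). Apolipoprotein genes were lower in 16 of 21 (median -0.09), with Apoe at -0.20 ± 0.09. Drug-metabolizing enzymes were lower in 24 of 39 (median -0.04), with Ugt2b36 at -0.25 ± 0.09 and Sult1b1 at -0.41 ± 0.15. Their median by mouse did not overlap either, at -0.15 to -0.04 in high and -0.01 to 0.02 in medium mice. Of the 45 lists, only acute phase, drug-metabolizing and iron and heme genes had medians by mouse without overlap at 401 days. Single genes without overlap made up 11.8% of all genes, so these separations are a description. Oxidative phosphorylation gave 19 higher and 31 lower of 50 (median -0.02), with Cox6a1 at -0.20 ± 0.08 and Ndufs8 at 0.32 ± 0.11, for which 4 of 5 other probe sets had the opposite sign.

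This shift depends on how the arrays are scaled. With quantile normalization the median was -0.03 for hepatocyte markers, of which 4 were then higher and 8 lower, and -0.08 for acute phase genes. The medians of 8 lists that lay from -0.09 to -0.01 turned to the positive side, at 0.03 or less, namely apolipoproteins, drug-metabolizing enzymes, oxidative phosphorylation, antioxidant, fatty acid oxidation, gluconeogenesis, methionine and iron genes. Quantile normalization brought Alb to -0.10, Ttr to -0.04, Hpx to -0.09, Hp to -0.13, Apoe to -0.03, Ugt2b36 to -0.15 and Cox6a1 to -0.06, and outside these lists Scp2 to -0.04, Cp to -0.04, Gstp1 to -0.17 and B2m to -0.05. At 485 days the medians were 0.10 and 0.06. In whole liver, fewer cells of a type and less RNA per cell cannot be told apart. Markers of other cells in the same mice were 10 of 14 higher for Kupffer cells and macrophages (median 0.19) and 11 of 13 higher for sinusoidal endothelium (median 0.15). In each mouse the Kupffer median was 0.29, 0.43 and -0.28 at the high and 0.26, 0.06 and -0.33 at the medium dose-rate, so the groups overlapped. Without medium mouse 3 the Kupffer median was -0.07. Named members were the complement receptor Vsig4 (0.31 ± 0.19), C1qb (0.33 ± 0.23), Pecam1 (0.47 ± 0.23) and Mrc1 (0.13 ± 0.10). The part of these cells in the hepatocyte values was not tested.

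Of the other cell types, stellate cells and fibroblasts gave 7 higher and 6 lower of 13 (median 0.03), and extracellular matrix genes, which they make, 4 higher and 21 lower of 25 (median -0.08), with the collagenase Mmp2 at -0.54 ± 0.33 and Mmp14 at 0.25 ± 0.18, each with 1 other probe set of opposite sign. Markers of cells that liver tissue can carry along were few above the filter. There were 2 of 13 listed markers measured for T cells, 2 of 10 for NK cells, 5 of 12 for B cells, 5 of 12 for neutrophils and 4 of 14 for pancreatic acinar cells. The acinar list had the median farthest from 0 (-0.44), the midpoint of Cela1 (-0.58 ± 0.34) and Prss2 (-0.29 ± 0.69). Its other members were Cela3b (-0.97 ± 0.27, 1 of 3 other probe sets opposite) and Cel (0.10 ± 0.50). Cela3b, a pancreatic elastase, read 136, 111 and 124 in high mice and 202, 262 and 289 in medium mice, with 165 to 185 in low mice and 156 in the pool. T cell (0.41), NK cell (0.27), platelet (-0.24), erythroid (-0.23), mesothelium (0.21), cholangiocyte (0.20), neutrophil (0.17), skeletal muscle (-0.07), gallbladder and gut (-0.06), adipocyte (0.04) and B cell (-0.02) medians rest on 1 to 5 genes each, and the arrays of the groups overlapped in all of them.

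**Figure D3:**
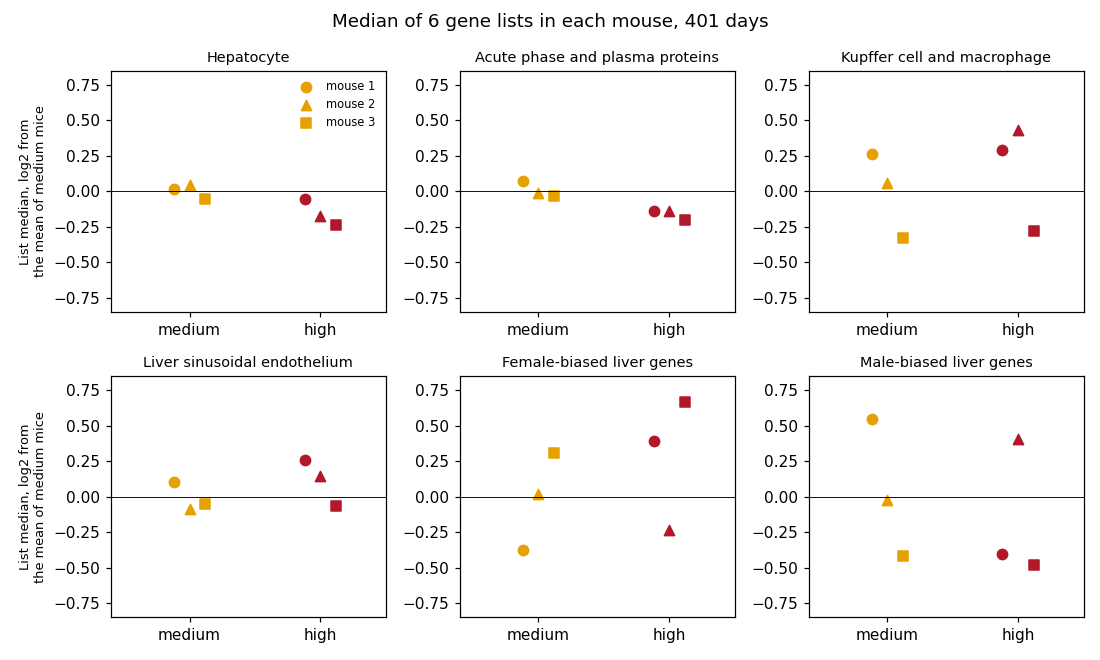
Median over the genes of 6 lists in each mouse of the 401-day experiment, in log2 from the mean of the 3 medium mice (orange), with high mice in red and marker shapes for mouse 1, 2 and 3. The groups separate for acute phase genes and overlap for the other lists, and the sex-biased lists spread most within a group.

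Sex-biased liver genes, which follow the pulses of growth hormone, varied most between mice of the same group among the 29 pathway lists. The female-biased list had the largest pathway median (0.33, 11 of 15 higher), but the medians of single mice were 0.40, -0.23 and 0.66 at the high and -0.37, 0.02 and 0.31 at the medium dose-rate, and without medium mouse 1 the list median was -0.10. The male-biased list mirrored it mouse by mouse, with -0.41, 0.41 and -0.48 against 0.55, -0.02 and -0.42 (median -0.21, 10 of 16 lower, 0.10 without medium mouse 1). Members with the smallest p were the neurotrophin receptor gene Ntrk2 (-0.63 ± 0.25, 2 of 7 other probe sets opposite), Fmo2 (0.33 ± 0.29, 2 of 4 opposite), Cux2 (0.35 ± 0.35, 1 of 2 opposite) and the peroxisomal transporter Abcd2 (0.53 ± 0.54) on the female-biased list, and Gstp1 and Cyp2d9 (-0.33 ± 0.20) on the male-biased list.

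The circadian clock list gave 9 higher and 8 lower of 17 (median 0.04). Nfil3, a repressor that competes with the clock output factors of the PAR bZIP family, read 1387, 1433 and 1529 in high mice and 1160, 720 and 663 in medium mice (0.81 ± 0.23, adjusted p = 0.812), with low mice (1017 to 1090) and the pool (1144) between the high mice and the lower medium mice. It was 0.65 ± 0.23 at 485 days. Cry1, a clock repressor, read 207, 401 and 399 against 310, 186 and 128 (0.70 ± 0.32). Glucocorticoid-induced genes were lower in 13 of 17 (median -0.17), although the members with the smallest p, Igfbp1 and the kinase Sgk1 (0.47 ± 0.18), were on the higher side. Iron and heme genes gave 8 and 9 of 17 (median -0.01; by mouse -0.03, -0.00 and -0.03 at the high and 0.01, 0.10 and 0.04 at the medium dose-rate, without overlap), with the transferrin receptor Tfrc at 0.47 ± 0.26 and ceruloplasmin (Cp) at -0.19 ± 0.12, where 3 of 7 other probe sets were opposite.

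Genes of ER stress and the amino acid response were lower in 19 of 26 (median -0.12), or 0.06 in the median without medium mouse 1. The serine synthesis gene Phgdh read 104, 339 and 318 in high mice and 366, 504 and 446 in medium mice (-0.93 ± 0.43, 1 of 3 other probe sets opposite), and the chaperone Calr was at -0.28 ± 0.14. Heat shock genes were lower in 12 of 20, near the 52.9% of all genes (median -0.06, but 0.06 without high mouse 1 and 0.02 without medium mouse 1), with the mitochondrial cochaperonin Hspe1 at -0.27 ± 0.13 (-0.03 by its probe set of highest mean) and the HSP90 cofactor Ahsa1 at -0.19 ± 0.10.

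**Figure D4:**
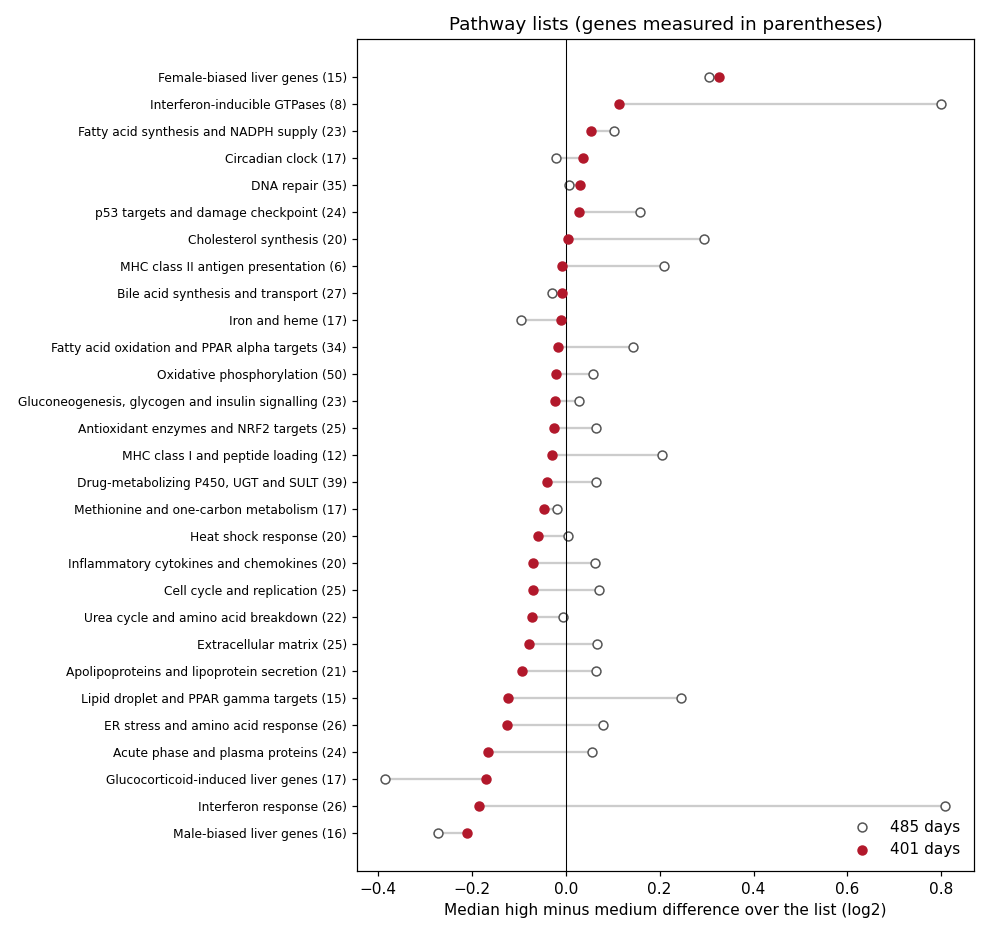
Median high minus medium difference (log2) of 29 pathway lists at 401 days (red) and 485 days (open circles), with the number of genes measured in parentheses. Most medians at 401 days lie within 0.2 of 0, and the widest gap between the experiments is that of interferon response genes, at -0.18 and 0.81.

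Interferon response genes, which cells switch on when they sense viral or misplaced nucleic acid, showed the widest gap between the experiments. The experiments differ in duration, in dose-rates and in the Gapdh and actin ratios, and what accounts for a gap between them was not tested. At 401 days 8 of 26 were higher and 18 lower in high mice (median -0.18, or -0.03 without medium mouse 3), and 0 had an unadjusted limma p under 0.05. At 485 days 25 of the same 26 were higher, where 50.1% of all genes were (median 0.81), and 20 had an unadjusted p under 0.05, where 4.04% of all genes did and 0 genes passed after adjustment (0%). The list median of single high mice at 485 days was 0.71, 1.23 and 0.43 above medium mice, whereas at 401 days it was 0.00, -0.16 and -0.15. At 401 days the medium mice were themselves spread, at -0.00, -0.17 and 0.14.

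The difference between the experiments was tested gene by gene as an interaction, which 0 of 11217 genes passed (0%), with a smallest adjusted p of 0.768, while 555 (4.95%) had an unadjusted p under 0.05. Of the 26 interferon response genes 17 had such a p. Usp18, which ends interferon signalling, read 401, 415 and 388 in high mice and 438, 371 and 728 in medium mice at 401 days (-0.29 ± 0.41), against a difference of 2.10 at 485 days (interaction adjusted p = 0.768, limma, the same for Gbp6). Low mice of the 485-day experiment read 510, 272 and 1050 for Usp18, from within the range of medium mice (230 to 294) to within that of high mice (718 to 2474). Gbp6, an interferon-induced GTPase, read 499, 446 and 647 against 538, 505 and 979 (-0.29 ± 0.26), against 1.43 at 485 days, and without medium mouse 3 its difference at 401 days was 0.0068. Ifih1, a sensor of double-stranded RNA named here after its value was seen, was at -0.19 and 0.74. Oas2 went the other way, at 1.12 ± 0.58 and -0.41, and Ifi27 was at -0.38 ± 0.23 and 0.89. The other genes with the smallest interaction p were A330009N23Rik (1.32 and -1.63), Frat1 (-2.26 and 1.18) and Fmr1nb (1.88 and -2.09), each of low signal, and Fmr1nb passed (adjusted p = 0.0394) without medium mouse 2, whose signal of 78.5 stood beside 3.81 and 3.69 in the other medium mice.

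Promoters of these genes often hold an interferon-stimulated response element, searched here as GAAANNGAAA on both strands. Among genes with a promoter in the RefSeq table (GRCm38.p6, 250 bases before to 50 after the start), 9 of the 19 interferon response genes found there held these letters, against 3.99% of all 27025 genes. A match is a description and no sign of binding. The windows of Ifih1 (chr2:62646206-62646505, minus strand) and Oas1a (chr5:120907476-120907775, minus strand), which makes the activator of RNase L and was also named after its values were seen, are shown as 2 members with a match that read higher in high mice at 485 days (Oas1a 1.08) and not at 401 days (-0.23). Capitals mark the match, which in Oas1a is a pair that overlaps.
Ifih1: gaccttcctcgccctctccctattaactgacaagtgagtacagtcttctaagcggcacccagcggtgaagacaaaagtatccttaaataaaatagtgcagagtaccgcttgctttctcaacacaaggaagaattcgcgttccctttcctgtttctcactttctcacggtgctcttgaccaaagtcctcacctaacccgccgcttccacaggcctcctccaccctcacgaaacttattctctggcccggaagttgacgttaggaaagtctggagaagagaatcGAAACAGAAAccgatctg
Oas1a: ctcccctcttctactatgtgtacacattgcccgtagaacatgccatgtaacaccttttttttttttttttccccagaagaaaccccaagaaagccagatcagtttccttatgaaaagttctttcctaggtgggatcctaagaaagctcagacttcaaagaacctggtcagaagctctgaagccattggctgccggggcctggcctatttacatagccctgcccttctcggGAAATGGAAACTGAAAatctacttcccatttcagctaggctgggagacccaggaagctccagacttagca

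**Figure D5:**
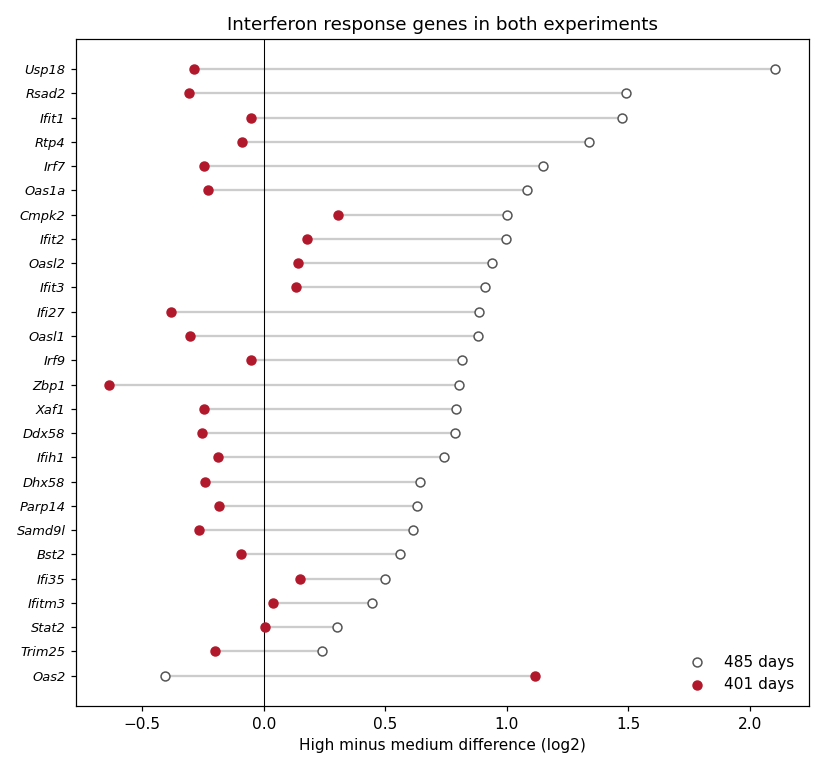
High minus medium difference (log2) of the 26 interferon response genes measured, at 401 days (red) and 485 days (open circles). At 485 days every gene except Oas2, whose signals there were under the array median, lies above 0, and at 401 days 18 lie below.

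Other immune lists had medians of -0.07 to 0.11 at 401 days. Interferon-inducible GTPases gave 6 higher and 2 lower of 8 (median 0.11, and 0.80 at 485 days), with Gbp3 at 0.69 ± 0.37. MHC class I genes gave 6 and 6 of 12 (median -0.03), with B2m, the light chain of class I molecules, at -0.18 ± 0.09 and the peptide trimmer Erap1 at 0.14 ± 0.14, whose 1 other probe set was opposite. MHC class II genes gave 3 and 3 of 6 (median -0.01), with H2-DMa at 0.47 ± 0.26 (1 other probe set, opposite) and the protease Ctss at -0.29 ± 0.21. Inflammatory cytokines and chemokines gave 7 higher and 13 lower of 20 (median -0.07), with the receptor Tlr4 at -0.61 ± 0.39, for which all 3 other probe sets had the opposite sign, and Ccl4 at -0.31 ± 0.26.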

How the data were processed

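The authors deposited 1 linear intensity per probe set and array, the MAS5 signal according to the submitters' processing notes. Its version and any detection calls are not given in the sources used here. Of 45101 probe sets, 34945 had 1 symbol in the platform annotation, 932 several and 9160 none, and 64 were controls. A pseudocount of 7.12, the signals' 10th percentile, was added before log2, which shrinks differences of low signals. Probe sets whose mean reached the median over all were kept (22519). Each gene took 1 of them, the highest in mean, with those marked as shared between transcripts (_s_at, _x_at) used last, which left 11217 genes. All 20 arrays entered 1 limma model of 8 group means (version 3.58.1 in R 4.3.3, lmFit, then eBayes allowing the variance to follow the mean, 12 residual degrees of freedom), with two-sided tests, and p-values were adjusted by the Benjamini-Hochberg method and called at 0.05. The procedure was tested on simulated data. The number of arrays limits the precision.

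Named genes were the 10 of smallest p in each direction, the 5 largest in each direction by the 1.5-fold rule, the 5 of smallest interaction p and up to 2 members of each described list (4 for the 6 lists whose medians lay farthest from that of all genes). Of 926 symbols on 45 lists (29 pathways, 16 cell types), 708 were tested. The comparison and the lists were chosen with earlier results of these data known. Alternatives were the pseudocount, the filter, the scaling, the arrays in the fit, the variance trend, array weights, the replicate block, the probe set rule and each array left out. Replicate numbers are shared by the groups but mark different mice.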

Additional observations from a re-analysis of the deposited data

How the results depend on the processing

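No gene passed in the comparison of high and medium mice at 401 days under any alternative listed except the fit of only the 6 arrays, where 1 did (Angptl8), which is also the 1 list member that passed. Leaving out each of the 6 arrays gave 0 genes, with 380 to 655 at an unadjusted limma p under 0.05, and array weights gave 968 such genes (8.63%), of which 0 passed. With the replicate block 0 genes passed (681 unadjusted), and it changed no other call, at 485 days included. The interaction gave 0 to 1 genes without single arrays and 0 elsewhere. The count of genes with a 1.5-fold difference and no overlap was 213, 785 with no filter (18193 genes tested, the added ones of low signal), 54 in the top 30% of probe sets (7902 tested) and 365 to 440 without single arrays, where 2 against 3 arrays overlap less easily. Same-numbered high and medium mice did not deviate together (correlations -0.148, 0.065 and 0.092), so the block rests on a number only. Signs turned for Praf2 (0.14, probe set with the highest mean) and without single arrays for Mdm2 (-0.18 to 0.017), Cel (-0.017 to 0.31), Ccng1 (-0.042 to 0.19) and Gbp6 (-0.47 to 0.0068). Of 807 list medians under the alternatives, 27 moved by more than the spread between mice and 780 did not. Signals under the array median are not shown to be above background.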
